A study of Rattus norvegicus with 12 samples.

Results

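The angiopoietins and their Tie receptors were measured in rat left ventricles by 5 array probes of 4 genes, Tie1, Tek (Tie2), Angpt1 and Angpt2. These were all the probes whose annotation symbol on the array is one of the 4 names, out of 22517 probes, of which 13787 had a symbol. Tie1 has 2 probes, called here the brighter (ILMN_1357525) and the dimmer (ILMN_2040854), and Tek (ILMN_1370024), Angpt1 (ILMN_1364587) and Angpt2 (ILMN_1650006) have 1 probe each. All 5 had a detection p under 0.05 on 12 of 12 arrays and were among the 10281 probes bright enough to be tested. The expression changes were asked over the vector that the rats had received and over the time for which it had been expressed.

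The hearts came from 12 Wistar rats, each on 1 single-colour bead array (Illumina RatRef-12). An adeno-associated virus of serotype 9 had been injected into the tail vein, and it carried human VEGF-B in 6 rats (AAV-VEGF-B hearts) and human serum albumin, a secreted control protein, in the other 6 (AAV-HSA hearts). In each group 3 rats were females after 2 months of expression and 3 were males after 4 months, and the males had received a second injection 10 weeks after the first, so that duration cannot be told apart from sex or from the second injection. The methods name vectors for 2 isoforms of VEGF-B, the labels do not say which one these rats received, and the vector was given systemically.

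Tek is the endothelial receptor tyrosine kinase to which the angiopoietins bind. Angpt1, which is made mainly by the cells around vessels, activates Tek and keeps vessels quiescent, whereas Angpt2 is made by the endothelium itself and often opposes Angpt1. Tie1 binds no angiopoietin directly and acts in a complex with Tek. Active Tek signals through PI3K and Akt, which keep the transcription factor Foxo1 out of the nucleus, and Angpt2 is a known Foxo1 target. VEGF-B itself binds VEGFR-1 (Flt1) and neuropilin-1, not the Tie receptors.

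Among the 4 genes the RefSeq promoter table used here (rat assembly GRCr8) held Tie1, whose probes changed most clearly, and its promoter is printed to show the sequence around the start of that gene. The window runs from 250 bases before to 50 bases after the start used for that promoter, at chr5:137304932-137305231 on the minus strand. Capitals mark the matches to GGAA, the core that ETS transcription factors recognise, which read TTCC on the printed strand.
Tie1 promoter: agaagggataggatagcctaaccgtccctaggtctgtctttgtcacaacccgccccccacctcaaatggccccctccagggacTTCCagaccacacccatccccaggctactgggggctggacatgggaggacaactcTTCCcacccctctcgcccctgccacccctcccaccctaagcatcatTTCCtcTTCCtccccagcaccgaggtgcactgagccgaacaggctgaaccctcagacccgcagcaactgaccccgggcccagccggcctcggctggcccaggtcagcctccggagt
On both strands GGAA was found 4 times, each time on the strand opposite to the gene, with first bases at -167, -112, -66 and -60 from the start. The annotated span of the Tie1 gene begins further upstream, at 137305047, so the matches at -66 and -60 lie inside that span. Of 33469 promoters of the same length 46.8% held at least as many GGAA matches, and 95.8% held 1 or more. The longer AGGAA, which contains GGAA, was found 2 times, and 33.4% of the promoters held as many. GATAA, a longer form of the GATA core of GATA factors, and ACAAT, a SOX core, had 0 matches in this window. Of all promoters 26.5% and 33.7% held 1 or more. The shorter GATA, which the printed sequence holds near its beginning, was not counted.

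Over all hearts, Tie1 and Tek were higher in AAV-VEGF-B than in AAV-HSA hearts, and the test was not passed by either angiopoietin. Of the 5 probes 3 were called higher and 0 lower (limma, Benjamini-Hochberg adjusted p under 0.05), where 4.17% of the 10281 tested probes were called higher and 1.03% lower. Those shares stand for 429 and 106 probes, and with median scaling of the arrays in place of quantile normalization for 842 and 27. Within the durations the receptors kept their direction at 2 and at 4 months. The ligands passed the test only at 2 months, when Angpt2 was higher and Angpt1 lower in AAV-VEGF-B hearts.

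**Figure D1:**
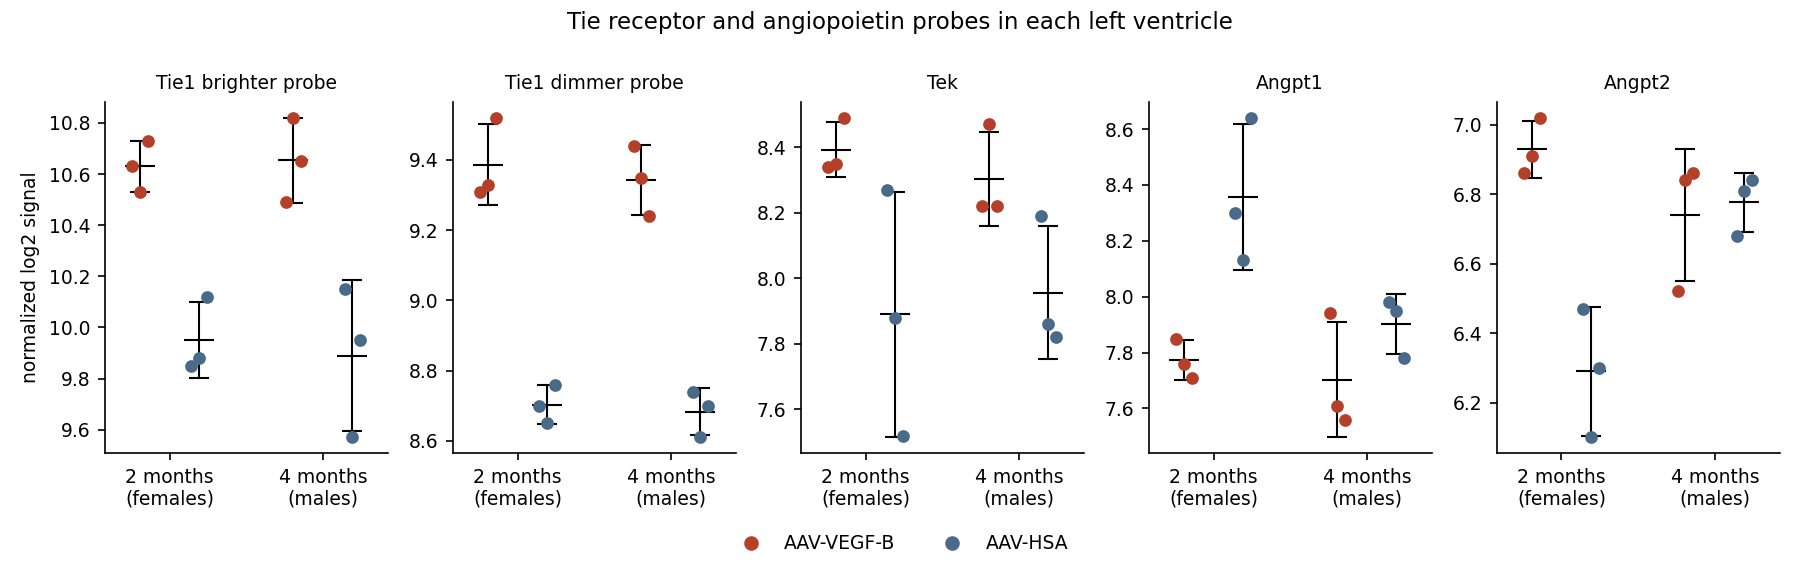
Normalized log2 signal of the 5 probes (vertical axes, 1 scale per panel) in each heart, by duration and sex (horizontal axis), with AAV-VEGF-B hearts in red and AAV-HSA hearts in blue. Bars are the mean and SD of 3 hearts. For both Tie1 probes the lowest AAV-VEGF-B heart lies above the highest AAV-HSA heart, and for Angpt2 the groups are apart at 2 months and overlap at 4 months.

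Levels are given as normalized log2 signals, so that a difference of 1 is a doubling. With the brighter Tie1 probe, the AAV-VEGF-B hearts read 10.63, 10.53 and 10.73 at 2 months and 10.49, 10.82 and 10.65 at 4 months. The AAV-HSA hearts read 9.85, 9.88 and 10.12 at 2 months and 10.15, 9.57 and 9.95 at 4 months. The vectors did not overlap, with 6 of 6 AAV-VEGF-B hearts higher than the highest AAV-HSA heart, as was the case for 2.96% of all tested probes. The means were 10.64 ± 0.12 in AAV-VEGF-B and 9.92 ± 0.21 in AAV-HSA hearts (SD, n = 6 each), a 1.65-fold difference (log2 change 0.72, SE 0.10, limma adjusted p = 0.00063). An exact two-sided permutation test gave p = 0.0022, the smallest that regroupings of 6 against 6 hearts can give. Before normalization the signals were 1615.3 to 1903.7 in AAV-VEGF-B hearts and 847.5 to 1337.6 in AAV-HSA hearts.

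The dimmer Tie1 probe separated the groups more tightly. It read 9.31, 9.33 and 9.52 at 2 months and 9.44, 9.35 and 9.24 at 4 months in AAV-VEGF-B hearts, against 8.70, 8.65 and 8.76 at 2 months and 8.74, 8.61 and 8.70 at 4 months in AAV-HSA hearts. The lowest AAV-VEGF-B heart was above the highest AAV-HSA heart by more than the range of the AAV-HSA hearts. The log2 change was 0.67 (SE 0.07, 1.59-fold, adjusted p = 8.5e-05), and by its p the probe ranked 8 of 10281, where the brighter ranked 41. The change of the brighter minus that of the dimmer probe was 0.05, which was within the spread between hearts (exact two-sided permutation p = 0.58, adjusted p = 0.58 over 3 differences between probes). Where in the transcript each probe lies was not analysed here.

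At 2 months the Tie1 change was 0.68 (SE 0.15, adjusted p = 0.027) by the brighter and 0.68 (SE 0.10, adjusted p = 0.005) by the dimmer probe, where 2.53% of the tested probes were called higher. At 4 months it was 0.77 (SE 0.15, adjusted p = 0.034) and 0.66 (SE 0.10, adjusted p = 0.013), where 0.749% were called higher. The difference of the change between the durations was 0.09 (SE 0.21) and -0.02 (SE 0.14), neither past the test. Tie1 did not pass the test over duration in either vector, with log2 changes from 2 to 4 months of 0.03 and -0.04 in AAV-VEGF-B hearts and -0.06 and -0.02 in AAV-HSA hearts (SE 0.15 and 0.10). Over all hearts both probes stayed called with each heart left out in turn. Within the durations the brighter probe lost its call at 2 months without replicate 1 or 5 of AAV-VEGF-B or replicate 2 or 4 of AAV-HSA (adjusted p = 0.071 to 0.093), and at 4 months without replicate 1, 4 or 6 of AAV-VEGF-B or replicate 3 or 5 of AAV-HSA (0.05 to 0.13). The dimmer lost it at 4 months without replicate 4 of AAV-VEGF-B (0.058) or replicate 3 of AAV-HSA (0.059). Replicate 1 of AAV-VEGF-B is a 2-month heart, and without it the 4-month change of the brighter probe stayed 0.77.

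**Figure D2:**
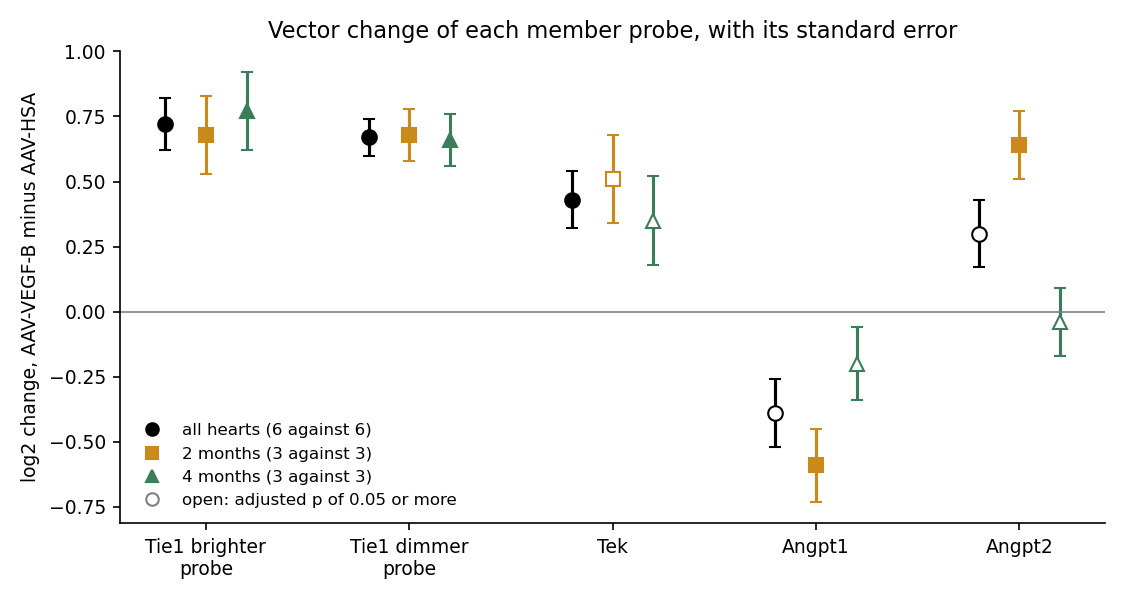
Log2 change, AAV-VEGF-B minus AAV-HSA (vertical axis), of each probe over all hearts (black circles), at 2 months (ochre squares) and at 4 months (green triangles), with the standard error of limma's fit. Open symbols have an adjusted p of 0.05 or more. The Tie1 changes lie between 0.66 and 0.77 in all 3 comparisons, while Angpt2 is at 0.64 at 2 months and at -0.04 at 4 months.

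Tek, the angiopoietin receptor, rose with more overlap between the groups. It read 8.34, 8.35 and 8.49 at 2 months and 8.22, 8.47 and 8.22 at 4 months in AAV-VEGF-B hearts, against 8.27, 7.88 and 7.52 at 2 months and 8.19, 7.86 and 7.82 at 4 months in AAV-HSA hearts. Within each duration the vectors did not overlap, with AAV-VEGF-B higher, which held for 11.1% of all tested probes at 2 months and 9.56% at 4 months, and over both durations 4 of 6 AAV-VEGF-B hearts exceeded the highest AAV-HSA heart. The AAV-HSA hearts were the more scattered group, with a mean of 8.35 ± 0.12 in AAV-VEGF-B and 7.92 ± 0.27 in AAV-HSA hearts (SD, n = 6 each). The log2 change was 0.43 (SE 0.11, 1.35-fold, limma adjusted p = 0.04), and the exact two-sided permutation test gave p = 0.0087. This call was lost without replicate 1, 3, 4 or 5 of AAV-VEGF-B or replicate 3, 4, 5 or 6 of AAV-HSA (log2 change 0.35 to 0.43, adjusted p = 0.064 to 0.084), and with no filter on dim probes (adjusted p = 0.063).

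At 2 months the Tek change was 0.51 (SE 0.17, adjusted p = 0.13) and at 4 months 0.35 (SE 0.17, adjusted p = 0.46), so that the test was passed at neither duration alone. The change at 2 months passed it without replicate 2 of AAV-HSA (0.70, adjusted p = 0.041), the highest of the AAV-HSA hearts, and with median scaling (0.70, adjusted p = 0.047). The 2 changes differed by -0.15 (SE 0.24, adjusted p = 0.98). Between the receptors, the Tie1 change by the brighter probe was 0.29 above that of Tek, which did not pass the exact two-sided permutation test (p = 0.082, adjusted p = 0.12 over the 3 differences). In AAV-VEGF-B hearts this difference had an SD of 0.09 over 6 hearts, against 0.36 in AAV-HSA hearts. It passed without replicate 6 of AAV-HSA, the heart with the lowest Tek (0.41, adjusted p = 0.0065), and on signals without background correction (0.36, adjusted p = 0.032).

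Angpt1, the Tek agonist, was the 1 gene of the 4 with a lower mean in AAV-VEGF-B hearts, and it passed the test only at 2 months. It read 7.85, 7.76 and 7.71 at 2 months and 7.94, 7.61 and 7.56 at 4 months in AAV-VEGF-B hearts. In AAV-HSA hearts it read 8.30, 8.13 and 8.64 at 2 months and 7.98, 7.95 and 7.78 at 4 months. The females with AAV-HSA stood above the other 9 hearts, and at 4 months the groups overlapped, with 2 of 3 AAV-VEGF-B hearts below the lowest AAV-HSA heart. At 2 months the vectors did not overlap, with AAV-VEGF-B lower, as for 11.3% of all tested probes at that duration, against 8.26% at 4 months. At 2 months the log2 change was -0.59 (SE 0.14, limma adjusted p = 0.041), where 0.788% of the tested probes were called lower. This call was lost without any 1 of 8 hearts, replicates 1, 3, 4 and 5 of AAV-VEGF-B and 1, 2, 3 and 6 of AAV-HSA (adjusted p = 0.052 to 0.15), with median scaling (-0.38, adjusted p = 0.11) and with no filter on dim probes (adjusted p = 0.058). Of these hearts, replicate 4 of AAV-VEGF-B and replicates 1 and 3 of AAV-HSA are from 4 months. Without each of them the 2-month change was -0.58 (adjusted p = 0.052 to 0.054).

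At 4 months the Angpt1 change was -0.20 (SE 0.14, adjusted p = 0.65). Over all hearts the means were 7.74 ± 0.14 in AAV-VEGF-B and 8.13 ± 0.31 in AAV-HSA hearts (SD, n = 6 each), a change of -0.39 (SE 0.13, adjusted p = 0.088). That change passed with duration as a block (adjusted p = 0.046) and without replicate 5 of AAV-HSA (-0.46, adjusted p = 0.044), and the exact two-sided permutation test without adjustment gave p = 0.011.

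Angpt2, the ligand stored and released by endothelial cells, was higher with AAV-VEGF-B at 2 months and did not pass the test at 4 months. The AAV-VEGF-B hearts read 6.86, 6.91 and 7.02 at 2 months and 6.52, 6.84 and 6.86 at 4 months, against 6.47, 6.10 and 6.30 at 2 months and 6.68, 6.81 and 6.84 at 4 months in AAV-HSA hearts. The females with AAV-HSA were the lowest 3 of the 12 hearts, and the other 9 lay between 6.52 and 7.02. The log2 change at 2 months was 0.64 (SE 0.13, 1.56-fold, limma adjusted p = 0.017) with the groups apart, as they were in this direction for 11.1% of all tested probes, and at 4 months -0.04 (SE 0.13, adjusted p = 0.95) with the groups overlapping. The 2-month call was lost without replicate 1 or 5 of AAV-VEGF-B or replicate 4 or 6 of AAV-HSA (adjusted p = 0.055 to 0.061), and at 4 months the change was 0.08 without replicate 2 of AAV-VEGF-B.

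This probe was dim, with signals of 228.5 to 266 in AAV-VEGF-B and 203.2 to 239.8 in AAV-HSA hearts and detection p-values up to 0.01697, and the size of its change moved with the background correction. Without one, the 2-month change was 0.28 (adjusted p = 0.03). Over all hearts the means were 6.84 ± 0.17 in AAV-VEGF-B and 6.53 ± 0.30 in AAV-HSA hearts (SD, n = 6 each), a change of 0.30 (SE 0.13, adjusted p = 0.19, exact two-sided permutation p = 0.052).

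The vector change of Angpt2 at 4 months minus that at 2 months was -0.68 on the log2 scale (SE 0.18, unadjusted p = 0.0021, adjusted p = 0.94), rank 18 of 10281 by p. For Angpt1 the difference was 0.39 (SE 0.20, unadjusted p = 0.074, adjusted p = 0.94). None of the 5 probes and 0 of all tested probes (0%) were called for this difference by limma, with 542 at an unadjusted p under 0.05, so a difference in the vector change between the 2 durations was not shown for any of the 4 genes. Over duration alone, the values at 4 months minus those at 2 months in AAV-HSA hearts were 0.49 for Angpt2 (SE 0.13, unadjusted p = 0.0018, adjusted p = 0.24) and -0.46 for Angpt1 (SE 0.14, unadjusted p = 0.0063, adjusted p = 0.31). In AAV-VEGF-B hearts they were -0.19 (SE 0.13) and -0.07 (SE 0.14). Of the 5 probes 0 were called over duration in either vector, where 0.136% of the tested probes were called in AAV-VEGF-B hearts and 0.0292% in AAV-HSA hearts. The 3 AAV-HSA females enter both the 2-month vector comparison and the duration comparison, which are therefore not separate observations.

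The ligands were also set against each other within each heart, which asks only whether they changed unequally. Angpt2 minus Angpt1 was higher by 0.69 in AAV-VEGF-B than in AAV-HSA hearts, with an SD of 0.28 in AAV-VEGF-B and 0.55 in AAV-HSA hearts (n = 6 each). It was higher by 1.23 at 2 months, when the vectors did not overlap, and by 0.16 at 4 months. Over all hearts the exact two-sided permutation test gave p = 0.026, which did not pass once adjusted over the 3 differences (adjusted p = 0.078). The adjusted p was 0.032 without background correction (difference 0.39), 0.039 without replicate 2 of AAV-VEGF-B and 0.026 without replicate 5 of AAV-HSA.

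**Figure D3:**
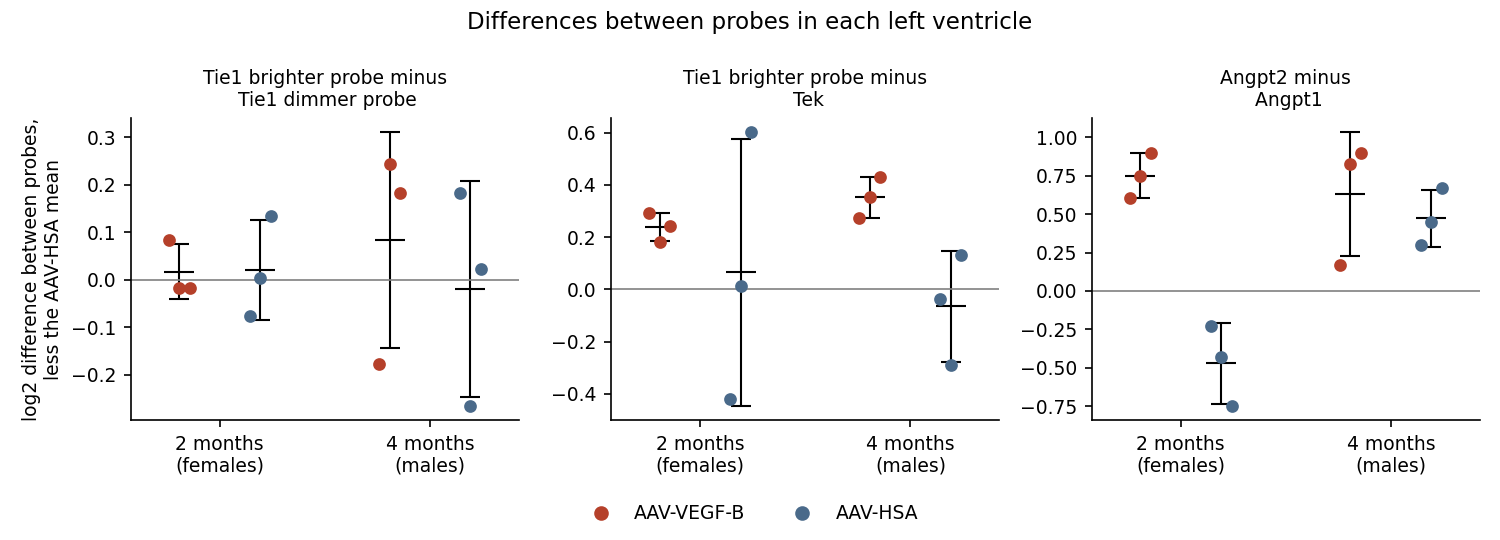
Difference between 2 probes in each heart, as log2 signal less the AAV-HSA mean of that difference (vertical axes), by duration and sex, for AAV-VEGF-B (red) and AAV-HSA hearts (blue). Bars are the mean and SD of 3 hearts. Angpt2 minus Angpt1 is higher by 1.23 with AAV-VEGF-B at 2 months and by 0.16 at 4 months, and the 2 Tie1 probes differ by 0.05 in their change over all hearts.

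Within the groups the 5 probes did not move as 1 set. After the mean of each vector and duration group was removed, the Tie1 probes correlated with each other at r = 0.42 over the 12 hearts, and the brighter Tie1 probe with Tek at 0.11. Angpt1 correlated at -0.39 with Tek, at -0.34 with Angpt2 and at 0.41 with the dimmer Tie1 probe. These values share the arrays and their normalization and are descriptions over few hearts.

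The rest of the pathway was taken from lists that were chosen with earlier results of these data known. Of 38 partners and adaptors of the Tie receptors, 24 were tested, 3 were higher and 0 lower in AAV-VEGF-B hearts, and their median change was 0.06, where all 7437 named genes tested had a median of -0.02, with 357 higher and 81 lower, or 888 and 681 without adjustment. The count of higher partners was 1 without background correction, on the deposited values, among probes detected on all 12 arrays and with the replicate number as a block. Nck2, an adaptor that links receptor tyrosine kinases to the cytoskeleton, rose by 0.56 (SE 0.08, adjusted p = 0.00061) without overlap between the vectors, as did 2.96% of all tested probes. Ptk2, focal adhesion kinase, rose by 0.38 (SE 0.09, adjusted p = 0.018), and by 0.15 on signals without background correction, where it did not pass (adjusted p = 0.057).

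Cdh5, the junctional VE-cadherin, rose by 0.38 (SE 0.10, adjusted p = 0.044), but its probe was detected on 4 arrays. Which hearts these were was not examined, so Cdh5 may have entered the test only through the hearts where it was higher. It counts among the higher partners and also among the higher endothelial markers. Its call was lost without replicate 2, 4, 5 or 6 of AAV-VEGF-B or replicate 2, 4, 5 or 6 of AAV-HSA (adjusted p = 0.053 to 0.095), without background correction, where the change was 0.18 (adjusted p = 0.065), on the deposited values (0.064), with no filter on dim probes (0.062) and with the replicate number as a block (0.12). Among the kinases downstream of Tek, Akt1 had a change of -0.07 (SE 0.09) and Akt2 one of -0.33 (SE 0.12, adjusted p = 0.13), neither past the test. Ptprb, the phosphatase VE-PTP that dephosphorylates Tek, and Svep1 had no named probe, and that of Lect2, a Tie1 ligand described in mice, was too dim to be tested.

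Of 28 genes placed downstream of the receptors by way of Foxo1, Akt or Klf2, 21 were tested, 6 were higher and 1 was lower, or 6 and 5 without adjustment. All 7437 named genes tested gave 357 and 81, or 888 and 681 without adjustment. The median change of the 21 genes was 0.02. Klf2, the flow-responsive factor of quiescent endothelium, rose by 0.82 (SE 0.13, adjusted p = 0.0012), with means of 10.08 ± 0.21 in AAV-VEGF-B and 9.26 ± 0.26 in AAV-HSA hearts (SD, n = 6 each). Nos3, endothelial nitric oxide synthase, which Akt phosphorylates and Klf2 induces, rose by 0.70 (SE 0.11, adjusted p = 0.001). For both genes the vectors did not overlap, as was the case in this direction for 2.96% of all tested probes.

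The same separation held for Aplnr, the apelin receptor (0.78, SE 0.12, adjusted p = 0.0012), and for Ccnd1, cyclin D1 (0.71, SE 0.10, adjusted p = 0.00063). Klf6 rose by 0.46 (SE 0.11, adjusted p = 0.018) and Klf4 by 0.47 (SE 0.12, adjusted p = 0.03), and the Klf4 call was lost without replicate 1, 3, 4 or 5 of AAV-VEGF-B or replicate 2, 5 or 6 of AAV-HSA (adjusted p = 0.057 to 0.066). The lower gene, named after its value was seen, was the stress gene Gadd45b (-0.55, SE 0.15, adjusted p = 0.038). The count of lower genes was 0 without replicate 1, 2, 3, 4 or 5 of AAV-VEGF-B or replicate 2, 3, 5 or 6 of AAV-HSA, and with median scaling, and 2 without replicate 1 of AAV-HSA. Foxo1 had no named probe. The other lower genes at an unadjusted p under 0.05 were Pdk4 (-0.65, SE 0.21, adjusted p = 0.086), Cat (-0.33, SE 0.10, adjusted p = 0.072), Cited2 (-0.33, SE 0.12, adjusted p = 0.13) and Bcl6 (-0.40, SE 0.18, adjusted p = 0.22), which did not pass after adjustment.

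Of 28 transcription factors known to act on Tie or angiopoietin genes, 17 were tested. Of these, 5 were higher and 0 lower, where 357 of all 7437 named genes tested were higher and 81 lower. The median change of the 17 factors was 0.34. That median was 0.16 without background correction and on the deposited values and 0.21 with an offset of 50, and with median scaling 8 were higher. The ETS factors Fli1 (0.63, SE 0.10, adjusted p = 0.0011) and Ets1 (0.60, SE 0.12, adjusted p = 0.0075) rose, whereas Erg, whose probe was dim, had a change of -0.01 (SE 0.13). The other tested ETS factors were not called. These were Elk3 (0.34, SE 0.12), Elf1 (0.24, SE 0.09), Elf2 (0.10, SE 0.09) and Ets2 (0.05, SE 0.11). Hhex, a homeobox factor of endothelial progenitors, rose by 0.69 (SE 0.08, adjusted p = 0.00035), and Gata2 by 0.50 (SE 0.09, adjusted p = 0.0054). Sox17, a factor of arterial endothelium, rose by 0.48 (SE 0.11, adjusted p = 0.02), and its adjusted p was 0.051 without replicate 1 of AAV-VEGF-B. The hypoxia factors Epas1 (0.17, SE 0.13) and Hif1a (-0.13, SE 0.13) did not pass.

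Other receptor families of vessels were compared in the same fit. Of 26 such receptors 15 were tested, and 0 were called by limma and 6 had an unadjusted p under 0.05 (3 in each direction), where 888 of all 7437 named genes were higher and 681 lower by that measure. The median change was 0.08, and the difference between these receptors and the Tie genes was not tested. With duration as a block or with median scaling 1 was called higher, and without replicate 3 of AAV-VEGF-B or replicate 6 of AAV-HSA 1 was called lower. Flt1, the receptor of VEGF-B, whose probe was as dim as that of Erg and was detected on 11 arrays, had a change of 0.08 (SE 0.09, adjusted p = 0.70), and Nrp1, neuropilin-1, one of 0.17 (SE 0.12, adjusted p = 0.44). The probes of Insr, Epha2, Ephb3, Kit, Erbb2 and Tyro3 were also dim and were detected on 6 to 9 arrays, which limits what they could show. Kdr, the main VEGF receptor, had no named probe. Angpt4, a further angiopoietin, was too dim to be tested, and of 7 angiopoietin-like proteins, which do not bind the Tie receptors, only Angptl2 was tested (0.07, SE 0.13, adjusted p = 0.80).

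**Figure D4:**
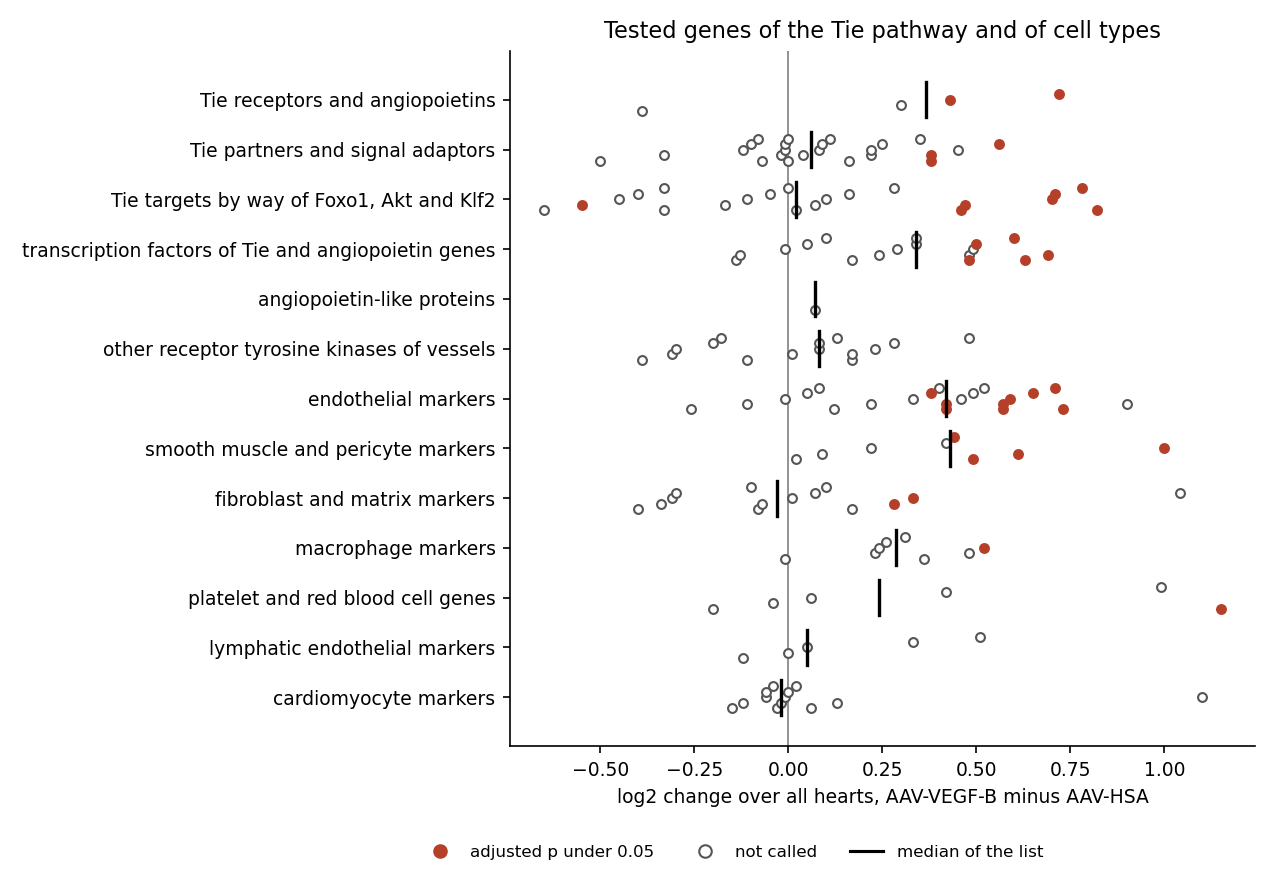
Log2 change over all hearts, AAV-VEGF-B minus AAV-HSA (horizontal axis), of each tested gene in 13 lists (rows), with genes called at an adjusted p under 0.05 in red, others open, and the median of each list as a black bar. Tie1 is shown by its brighter probe. The medians are 0.34 for the transcription factors, 0.42 for endothelial markers and 0.43 for smooth muscle and pericyte markers, and -0.02 for cardiomyocyte markers.

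The Tie receptors are endothelial, and several markers of vessel cells were also higher in AAV-VEGF-B hearts. Of 22 tested endothelial markers 9 were higher and 0 lower, where all 7437 named genes gave 357 and 81. Without adjustment the markers gave 15 and 1, where all named genes gave 888 and 681. The median change of the markers was 0.42, and their summed level, the log2 of their added normalized signals, was 15.06 to 15.30 in AAV-VEGF-B and 14.62 to 14.90 in AAV-HSA hearts, without overlap. Such a sum follows its brightest probes, here Fabp4 (mean 13.31 in AAV-VEGF-B hearts, not called) and Aqp1 (12.5, called higher). Emcn, endomucin (0.71, SE 0.09), and the receptor Adgrl4 (0.73, SE 0.10) changed by amounts close to that of Tie1, and the value for Vwf was 0.05 (SE 0.15). Of the 22 markers 13 were not called. Among them Clec14a (-0.26, SE 0.12), Cldn5 (-0.11, SE 0.13) and Erg (-0.01, SE 0.13) had lower means with AAV-VEGF-B. Of 8 tested markers of smooth muscle cells and pericytes, which make Angpt1, 4 were higher, where all 7437 named genes gave 357. The 4 higher markers were led by Higd1b (0.61, SE 0.09) and Mcam (1.00, SE 0.17), and the median change of the 8 was 0.43. The 4 not called were Rgs5 (0.42, SE 0.13), Tagln (0.22, SE 0.34), Abcc9 (0.09, SE 0.08) and Anpep (0.02, SE 0.16). The Mcam probe was dim in AAV-HSA hearts (mean 5.86) and was detected on 10 arrays. Without background correction the Mcam change was 0.42 and the median of the list 0.25. Kcnj8 (0.44, SE 0.12, adjusted p = 0.046) lost its call without 10 of the 12 hearts, each left out alone, and the summed level of the list was 12.04 to 12.21 in AAV-VEGF-B and 11.81 to 12.08 in AAV-HSA hearts. In that sum Abcc9 (mean 11.24 in AAV-VEGF-B hearts) was the brightest probe. In whole ventricle, more vessel cells and more RNA of these genes per vessel cell cannot be told apart, and the part of the vessel markers in the Tie changes was not tested.

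Over duration in AAV-HSA hearts, where Angpt2 and Angpt1 had differences of 0.49 and -0.46, the endothelial list had a median of 0.07, the pericyte list of 0.15 and the macrophage list of 0.30, and 0 of their genes were called. The part of these cells in the angiopoietin changes was not tested. Lymphatic endothelial markers had 0 of 5 called (1 higher at an unadjusted p under 0.05, and 1 called higher without replicate 2 of AAV-HSA), and the value for Lyve1 was 0.05 (SE 0.18). Macrophage markers, whose cells can express Tek, had 1 of 8 called, Aif1 (0.52, SE 0.13, adjusted p = 0.028), which was lost without replicate 1 or 3 of AAV-VEGF-B or replicate 2, 3, 4 or 6 of AAV-HSA (adjusted p = 0.053 to 0.067). Without adjustment 3 were higher and 0 lower, where all 7437 named genes gave 888 and 681, and the median change was 0.29. At 2 months 2 were called, Aif1 (0.80, limma adjusted p = 0.018) and C1qa (0.81, 0.028), and at 4 months 0. Of all named genes 289 were called at 2 months. The summed level of the macrophage list was 10.46 to 11.10 in AAV-VEGF-B and 10.15 to 10.77 in AAV-HSA hearts, and Cd68, Csf1r and Lyz2 had no named probe.

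Of the other lists, 2 of 14 fibroblast genes were higher, Col5a2 (0.33) and Fstl1 (0.28), and 1 of 6 platelet and red cell genes, Ahsp (1.15, SE 0.29, detected on 9 arrays, and 0.51 without background correction), and these calls were lost without 7, 9 and 8 of the 12 hearts, each left out alone. Of all 7437 named genes tested 357 were higher. Platelets store Angpt1, and their gene Pf4 had a difference of 0.99 (SE 0.30, adjusted p = 0.068). Cardiomyocyte markers had 0 of 13 called (0 at an unadjusted p under 0.05), a median of -0.02 and summed levels of 17.87 to 18.07 in AAV-VEGF-B and 17.87 to 18.02 in AAV-HSA hearts, and all 13 were detected on 12 of 12 arrays. That sum follows very bright probes, such as Atp2a2 (15.33 ± 0.03 in each group, SD) and Myl3 (means 15.15 and 15.21). Whether probes this bright could show a change was not tested, which limits what the list could show. The largest change among the 13 markers was that of Nppa (1.10, SE 0.78, limma adjusted p = 0.46), which was 2.05 at 2 months (adjusted p = 0.063) and 0.14 at 4 months.

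The genes whose levels followed each probe most closely from heart to heart were ranked among 7436 named genes, by the correlation over the 12 hearts of deviations from the 4 group means. For the brighter Tie1 probe they were Zfp317 (r = 0.91), Gga1 (0.90), Atg7 (0.89), Aplnr (0.88) and Acvr2b (0.87), and of these Aplnr was called for the vector change. For the dimmer probe they were Lrrc23 (0.95), Aars1 (0.91), Bdh1 (0.89), Plekhb2 (0.88) and Bckdha (0.88). The 2 Tie1 probes had no gene in common among their 5.

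Tek was followed by Paf1 (0.94), Sox6 (0.94), Adgrl2 (0.91), Pdia5 (0.91) and Bcl2l13 (0.91), of which Sox6 changed by -0.37 with the vector (SE 0.09, adjusted p = 0.022), opposite to Tek. Angpt1 was followed by Tnnc2 (0.97), Myo10 (0.96), Alox12b (0.94), Kcnj9 (0.93) and Gtpbp8 (0.92). Angpt2 was followed by Tmem140 (0.96), Disp1 (0.93), Aqr (0.92), Dhps (0.92) and Fdx1 (0.91). On the deposited log2 values 5 and 4 of the 5 genes were again among the top 5 for the brighter and the dimmer Tie1 probe, 4 for Tek, 3 for Angpt1 and 5 for Angpt2. The hearts share 1 array type and normalization, and the highest of 7436 correlations over 12 hearts describe these arrays only.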

How the data were processed

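RNA of 12 left ventricles was hybridised to 1 array each. The authors deposited signal intensities per probe, not normalized, as GenomeStudio exports them, together with detection p-values against negative control beads, and log2 values that differ by at most 0.005 from the quantile normalized log2 signals. Their methods name quantile normalization and empirical Bayes statistics; a background correction is not given in the sources used here. Array medians were 152 to 180, and 39.2% to 43.5% of probes were detected (p under 0.05). Precision is limited by the number of arrays. Groups, sex and duration came from the labels, and 0 value columns were left unused. The labels number the samples and do not state that each is a separate rat; p-values measure the spread between these samples.

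Signals were processed with neqc in limma 3.58.1 (R 4.3.3): background was corrected by normexp on the basis of detection p-values (offset 16), arrays were quantile normalized, and log2 was taken. Probes detected on 3 or more arrays were tested with lmFit and eBayes, with 2 groups over all hearts and 4 groups (vector by duration) for the other comparisons, with Benjamini-Hochberg adjustment over 10281 probes and a threshold of 0.05. The limma fits were tested on simulated normalized values, and the other steps were not. The brightest tested probe stood for a gene. Named genes were the members, up to 6 called genes per list with the smallest p, a fixed set of partners and receptors (Ptprb, Cdh5, Svep1, Lect2, Foxo1, Klf2, Nos3, Flt1 and Kdr), and the 5 genes most like each probe. Other list genes were named after their values were seen. The members and the 13 lists were chosen with earlier results of these data known. Alternatives were no or another background correction, median scaling, the deposited values, other filters, blocks for duration and replicate, an exact test and leaving out each heart.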

Additional observations from a re-analysis of the deposited data

Results flagged for a closer look

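Among the 6 AAV-VEGF-B hearts, the Angpt2 level of replicate 2, a male after 4 months, was 6.52 on the log2 scale and stood below the others. Its gap to the next heart was 0.66 of the range of the group, above the limit for 6 values. The limit was applied to each of the 5 probes in both vectors, and only this group exceeded it. Chance alone marks about 1 in 20 groups in this way. This heart is in the 4-month comparison, where the Angpt2 change was -0.04 with it and 0.08 without it.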

How the results depend on the processing

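Both Tie1 probes kept their call over all hearts under all 21 alternatives. The log2 change was 0.65 to 0.77 (brighter) and 0.64 to 0.70 (dimmer) with 1 heart left out. Tek over all hearts had an adjusted p of 0.063 with no filter and 0.078 with the replicate number as a block (change 0.43). The same numbers did not pair the hearts (correlations -0.19 to -0.05, 0 of 6 hearts closest to their own number). With this replicate block 300 probes were higher and 42 lower. Angpt1 over all hearts (-0.39) had an adjusted p of 0.046 with duration as a block and an unadjusted exact permutation p of 0.011. With median scaling, which moved the median of all probes to 0.08 from -0.02, the change was -0.38 for Angpt1 and 0.70 for Tek at 2 months and 0.05 for Angpt2 at 4 months, the duration changes of Tie1 in AAV-HSA hearts were 0.02 and 0.06, and relative to that median the changes over all hearts were 0.75 and 0.72 for Tie1, 0.50 for Tek, -0.32 for Angpt1 and 0.34 for Angpt2. With no filter the Angpt1 change at 2 months stayed -0.59 (adjusted p = 0.058). Angpt2 minus Angpt1 passed at 0.39 without background correction and on the deposited values, and at 0.50 with an offset of 50. Tie1 minus Tek passed at 0.36, 0.37 and 0.34 in the same settings. In those settings and with median scaling, probes called at 4 months were 136, 136, 130 and 127, over duration in AAV-VEGF-B hearts 80, 76, 42 and 24, and in AAV-HSA hearts 6, 6, 7 and 6, or 0 among probes detected on all arrays. Probes lower over all hearts were 175 without background correction, 179 on deposited values, 180 with duration as a block and 27 with median scaling, which called 842 higher, and 626 at 2 months. Leaving out 1 heart at a time gave 50 to 116 probes lower over all hearts, 82 to 309 called at 2 months, 7 to 78 at 4 months, and 2 to 23 and 1 to 3 over duration in AAV-VEGF-B and AAV-HSA hearts. The changes then ranged, for Tek, between 0.35 and 0.50 over all hearts, 0.32 and 0.70 at 2 months, -0.34 and 0.03 for the difference between durations and -0.12 and 0.26 over duration in AAV-HSA hearts. For Angpt1 they ranged between -0.46 and -0.29, at 2 months between -0.70 and -0.44, and over duration in AAV-VEGF-B hearts between -0.19 and 0. For Angpt2 they were 0.54 to 0.74 at 2 months and between -0.10 and 0.08 at 4 months. For the brighter Tie1 probe they were 0.63 to 0.76 at 2 months, 0.60 to 0.90 at 4 months, between -0.07 and 0.22 for the difference, and between -0.06 and 0.11 and -0.19 and 0.10 over duration in AAV-VEGF-B and AAV-HSA hearts. For the dimmer they were 0.61 to 0.71 at 4 months, between -0.07 and 0.04 for the difference, and between -0.09 and 0.02 and -0.05 and 0.02 over duration in AAV-VEGF-B and AAV-HSA hearts. Differences between probes were 0.55 to 0.83 for Angpt2 minus Angpt1, 0.21 to 0.41 for Tie1 minus Tek and 0 to 0.10 between the Tie1 probes. The cause of these shifts was not tested. With 3 hearts per vector and duration, and an Angpt2 signal close to background, differences between the durations were poorly resolved.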
